A study of Mus musculus with 16 samples.

Results

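Embryonic stem cells (ESCs) with an Actb knockout (KO) were compared with wild-type ESCs across the whole transcriptome. Actb encodes beta-actin, a cytoplasmic actin present in nearly all cells, and the members described here are all genes whose values averaged 1 or more over the ESC libraries, 23054 of the 23083 genes in the table. The comparison rests on 4 of the 16 RNA sequencing libraries of the series, 2 from Actb KO ESCs and 2 from wild-type ESCs. A further 2 libraries came from ESCs with a deletion of the full Actb locus, and these share the fit, so that the spread between libraries was estimated over all 6. The cells are mouse ESCs, and the labels name no treatment, strain, sex or passage. They do not say how the KO allele was made, how many clones it stands for, or whether the 2 libraries of a group came from separate cultures, so the p-values speak only of how much these libraries vary, part of which may be technical. Levels are normalised read counts, given for library 1 and then library 2 of each group, and a gene is called higher or lower at an adjusted p below 0.05 in limma.

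Actin exists as free monomers and as filaments, and cells sense the balance between these pools. Free monomers bind the MRTF coactivators and hold them away from the serum response factor SRF, which otherwise binds a short promoter sequence, the CArG box, in many genes of the cytoskeleton. ESCs keep their identity through a network around Oct4 (Pou5f1), Sox2 and Nanog, and FGF, BMP, WNT and Nodal signals move them towards the epiblast, the primitive streak or, rarely in culture, trophoblast and germ line fates.

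Actb, on chr5:142903115-142906754 (GRCm38, minus strand), had 23650 and 22707 in Actb KO ESCs and 2372 and 2336 in locus deletion ESCs, against 36364 and 34140 in wild-type ESCs. The KO libraries therefore lay below the wild-type libraries while most of the mRNA remained (log2 fold change −0.60, SE 0.0933, adjusted p = 0.0112), and far above the locus deletion (KO over locus deletion 3.30 on the log2 scale, adjusted p = 4.5e-06). Reads of actin genes and of their many processed pseudogenes are hard to tell apart, so the split among them is uncertain. The ESC label was matched by its markers: all 27 listed ESC markers were tested, and Pou5f1 (5774 and 5190 in KO, against 4476 and 3671 in wild type), Nanog, Sox2, Esrrb and Klf4 were abundant and not called. Markers of fibroblasts, which serve as feeder cells, were low, with summed levels over 11 tested markers of 286 in each KO library and 345 to 364 in wild type, and 9 listed markers, Col1a2, Col3a1 and Dcn among them, were not analysed here. Of the macrophage and blood cell markers Ptprc, Adgre1, Tyrobp, Lyz2 and 3 others were not analysed here, while 2 of 5 tested were higher, Laptm5 (1877 and 1786 in KO, against 1018 and 914 in wild type) and Cd68, and their summed level was 1952 to 2051 in KO and 974 to 1119 in wild type. Of 8 endothelial markers 2 were lower, Pecam1 and Tek, with summed levels of 1488 to 1551 in KO and 2037 to 2103 in wild type. The part of such cells in the results was not tested. Summed values per library were 16022043 to 16529089 in the ESC table.

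Of the 23054 genes, 563 were called higher in the KO (2.44 percent) and 563 lower (2.44 percent), 4.88 percent in all, and 255 and 261 of these differed by at least 2-fold. Read as RNA from bulk cultures, such a difference may be fewer cells of a type or less RNA per cell, which cannot be told apart. The median log2 fold change of all genes was 0.0. In limma 4662 of the 23054 genes had an unadjusted p below 0.05, the background for such counts in the lists below. Every called gene had KO and wild-type values that did not overlap, which a call with 2 libraries in each group nearly requires. The share without overlap among all genes was not counted, so this adds no support of its own. To describe these changes, 75 lists of genes by pathway, family or cell type were drawn up, with 1536 distinct tested members. Of these members 139 were higher and 106 lower, beside 2.44 percent of all genes in each direction, and 16 of those lower lie on chromosome 8. Genes with a mean below 10 were called higher in 0.266 percent and lower in 0.178 percent, and those of 200 to 1000 in 4.16 and 4.18 percent. The lists were drawn up with earlier results of these data known, so their shares are a description and no independent support. The lists were also not matched to all genes by level. Rescaled without the genes that each take over 1 percent of a library, the split was 468 higher and 787 lower, in place of 563 and 563. The number of calls rested on every library. With KO library 1 or KO library 2 left out, limma made 0 calls (2912 and 3263 genes at an unadjusted p below 0.05), and without wild-type library 1 or 2 it made 4. Those 4 were Acta2, Myl9, Enox1 and Spry4 in either case (adjusted p = 0.012 to 0.0389). All 244 genes covered by the naming rule kept their direction in each of these fits, as values without overlap between the groups require.

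**Figure D1:**
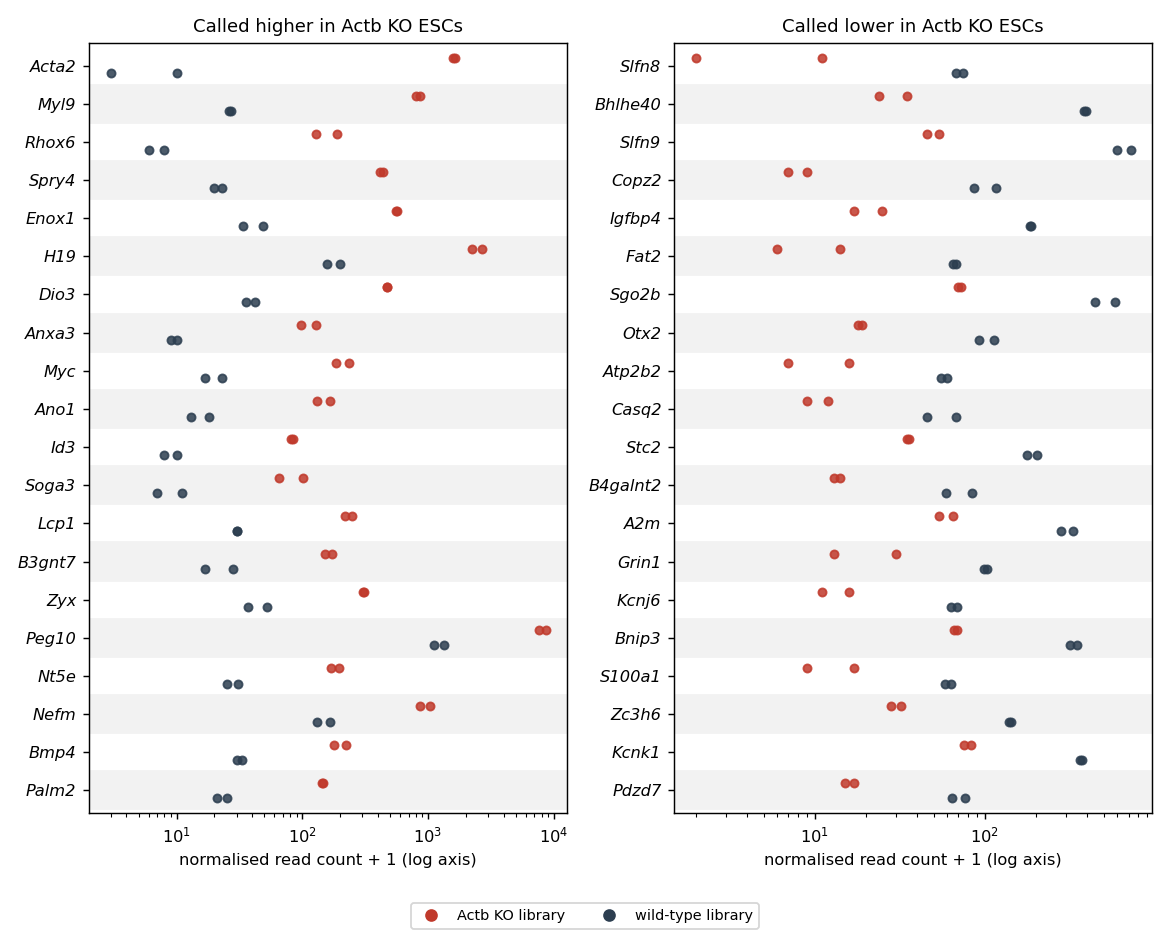
Normalised read counts plus 1 on a log axis for the 20 named genes with the largest and the 20 with the smallest log2 fold change among called genes with a mean of at least 50 in the higher group. Each dot is 1 library, red for Actb KO and dark for wild type. Genes were chosen to have no overlap between KO and wild-type values, so the dots lie apart in every row. Examples are Myl9 (808 and 862 in KO, 25 and 26 in wild type) and Bhlhe40 (23 and 34 in KO, 381 and 390 in wild type).

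The plot of the 20 most raised and 20 most lowered genes spans muscle-type actin and myosin, signalling inhibitors, imprinted genes and transcription factors. The smooth muscle actin Acta2, at 1565 and 1631 in KO, against 2 and 9 in wild type, led the raised genes, followed by Myl9, described with its group. Enox1, a cell surface oxidase, had 555 and 569 in KO, against 48 and 33 in wild type (log2 fold change 3.79, SE 0.189, adjusted p = 6.23e-05). The calcium-activated chloride channel Ano1 had 166 and 131 in KO, against 17 and 12 in wild type (3.28, adjusted p = 0.000437). Nt5e, a surface enzyme that makes adenosine, had 168 and 196 in KO, against 30 and 24 in wild type (2.71, adjusted p = 0.000801). For all of these the lowest KO library stood several-fold above the highest wild-type library. Among lowered genes, Bhlhe40, a transcriptional repressor of the clock and of the response to low oxygen, had 23 and 34 in KO, against 381 and 390 in wild type (−3.74, SE 0.242, adjusted p = 0.000236). Neighbouring Schlafen genes on chromosome 11 fell with it: Slfn9 had 53 and 45 in KO, against 720 and 597 in wild type (−3.72, adjusted p = 7.64e-05). Slfn8 had 10 and 1 in KO, against 67 and 73 in wild type, and Slfn10-ps 4 and 4, against 27 and 50. The other 4 tested Schlafen genes were not called, and the copies are similar enough in sequence for the assignment of reads to be uncertain. The protease inhibitor A2m had 53 and 64 in KO, against 278 and 330 in wild type (−2.36, adjusted p = 0.000801). The potassium channel gene Kcnj6, the glutamate receptor gene Grin1, Casq2, which encodes a calcium-binding protein, and the calcium pump gene Atp2b2 were also among the 20 most lowered genes, with wild-type levels of 45 to 102.

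Chromosome 8 stood apart from the other autosomes. Of its 1222 tested genes 119 were called lower (9.74 percent) and 7 higher, against 1.38 to 3.25 percent called lower on each of the 18 other autosomes. It held 21.1 percent of all genes called lower, and outside it 444 genes were lower (2.03 percent). Among its 625 genes with a mean of at least 50, the median log2 fold change was −0.35, with the middle 50 percent between −0.53 and −0.14, and 536 (85.8 percent) lay below 0, against 40.9 to 50.4 percent on the others. The medians of the other autosomes were 0.0 to 0.08. The shift ran along the whole chromosome: over 13 windows of 10 Mb, each with 10 to 95 of these genes, the medians were −0.49 to −0.24. Chromosome 8 genes took 4.26 and 4.37 percent of the protein-coding signal in the KO libraries and 4.07 and 4.08 percent in the locus deletion libraries, against 5.5 and 5.68 percent in the wild-type libraries. Between KO and locus deletion the median on chromosome 8 was 0.08. Chromosome 8 and the KO cannot be told apart for a lowered gene that lies on it, and some counts below are also given without its genes. Of the 20 most lowered genes described above, Kcnk1 and Sgo2b lie on it. Kcnk1, a potassium channel, had 74 and 82 in KO, against 372 and 363 in wild type (−2.22), and Sgo2b, which has a close paralog, had 71 and 69, against 444 and 582 (−2.84), both beyond the chromosome's median.

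**Figure D2:**
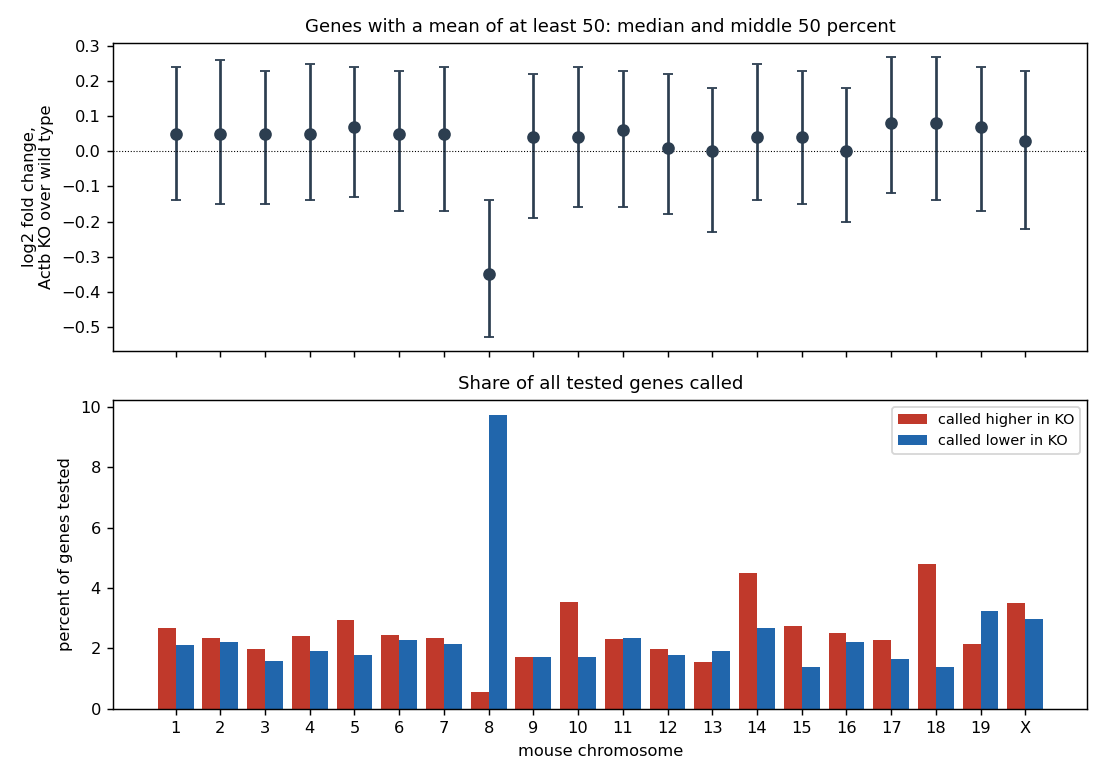
Upper panel, the median log2 fold change of KO over wild type by chromosome for genes with a mean of at least 50, with bars for the middle 50 percent of genes; lower panel, the percent of all tested genes called higher (red) or lower (blue). Chromosome 8 has a median of −0.35 and 9.74 percent of its genes called lower, while the medians of the other autosomes lie between 0.0 and 0.08.

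The targets of SRF and MRTF were called more often than any other list of over 10 genes examined: 21 of 35 were higher and 0 lower (median log2 fold change 0.89, against 0.0 for all genes). This rank is a description, as the lists were drawn up with earlier results of these data known. Acta2, the most raised gene, was not in this list. Myl9, the regulatory light chain of smooth muscle and non-muscle myosin, had 808 and 862 in KO, against 25 and 26 in wild type (log2 fold change 4.98, SE 0.154, adjusted p = 9.7e-06). The calponin Cnn2, which binds filaments, had 1591 and 1456 in KO, against 291 and 289 in wild type (2.39, SE 0.122, adjusted p = 6.34e-05). Flna, the filament crosslinker filamin A, had 20595 and 19868 in KO, against 5182 and 5043 in wild type (1.98, adjusted p = 6.34e-05). In each of these genes the KO and wild-type values lay far apart, and the 2 libraries of a group differed by far less than the groups did. Srf itself was raised, with 711 and 640 in KO, against 321 and 262 in wild type (1.22, adjusted p = 0.00322), while the genes of its coactivators, Mkl1 (316 and 307 in KO, 310 and 291 in wild type) and Mkl2, were not called. Tropomyosins, which coat filaments, were raised in 3 of 4 cases: Tpm1 had 4586 and 4377 in KO, against 1435 and 1266 in wild type (1.73, adjusted p = 0.000298), and Tpm2 and Tpm4 rose by 2.14 and 0.89, while Tpm3 had 3534 and 3748 in KO and 3183 and 2963 in wild type and was not called. Immediate early genes, many of which respond to SRF through other partners, had a median of −0.09, with 4 of 20 higher (Myc, Srf, Junb and Nr4a1) and 1 lower (Ier3). Ier2 had 503 and 450 in KO and 617 and 399 in wild type and was not called. With single libraries left out, the adjusted p of the called SRF targets ran from 0.0351 to 0.303, and only Myl9 still passed, in the 2 fits without a wild-type library.

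Promoters were searched for the CArG box on both strands, in the 300 bases from 250 before to 50 after each gene's start (RefSeq, GRCm38.p6). It was found for 9 of the 28 SRF targets with a promoter in that table, 4 of 18 that were called and 5 of 10 that were not. Among all tested genes with a promoter the share was 1.6 percent (202 of 12622), among genes called higher 5.44 percent (21 of 386) and among genes called lower 1.99 percent (8 of 402). A match is a description of these letters and not a proven binding site. Stretches around the match are shown for the targets called higher that held it, with the CArG box in capitals. Lef1, from several genes outside the list that were called higher and held it, was picked as an example. The stretches show how near the start these boxes lie. The boxes begin 161 bases before the gene's start for Myl9, 56 for Cnn2, 227 for Vcl, 82 for Srf and 100 for Lef1. The stretches lie at chr2:156775273-156775342 (Myl9, plus strand), chr10:79988514-79988583 (Cnn2, plus), chr14:20929148-20929210 (Vcl, plus), chr17:46556205-46556274 (Srf, minus) and chr3:131112661-131112730 (Lef1, plus).
Myl9: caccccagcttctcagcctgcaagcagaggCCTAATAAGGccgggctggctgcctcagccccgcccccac
Cnn2: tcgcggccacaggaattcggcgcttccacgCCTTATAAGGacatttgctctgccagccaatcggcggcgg
Vcl: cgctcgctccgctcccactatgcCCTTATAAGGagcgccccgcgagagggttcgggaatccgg
Srf: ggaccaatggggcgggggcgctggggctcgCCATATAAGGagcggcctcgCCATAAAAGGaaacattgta
Lef1: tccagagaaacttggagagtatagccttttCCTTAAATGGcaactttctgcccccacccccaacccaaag
The stretch before Srf holds 2 boxes 10 bases apart. Vcl encodes vinculin, which links adhesions to filaments, and had 2138 and 2034 in KO, against 1235 and 1259 in wild type (log2 fold change 0.74, adjusted p = 0.00585).

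**Figure D3:**
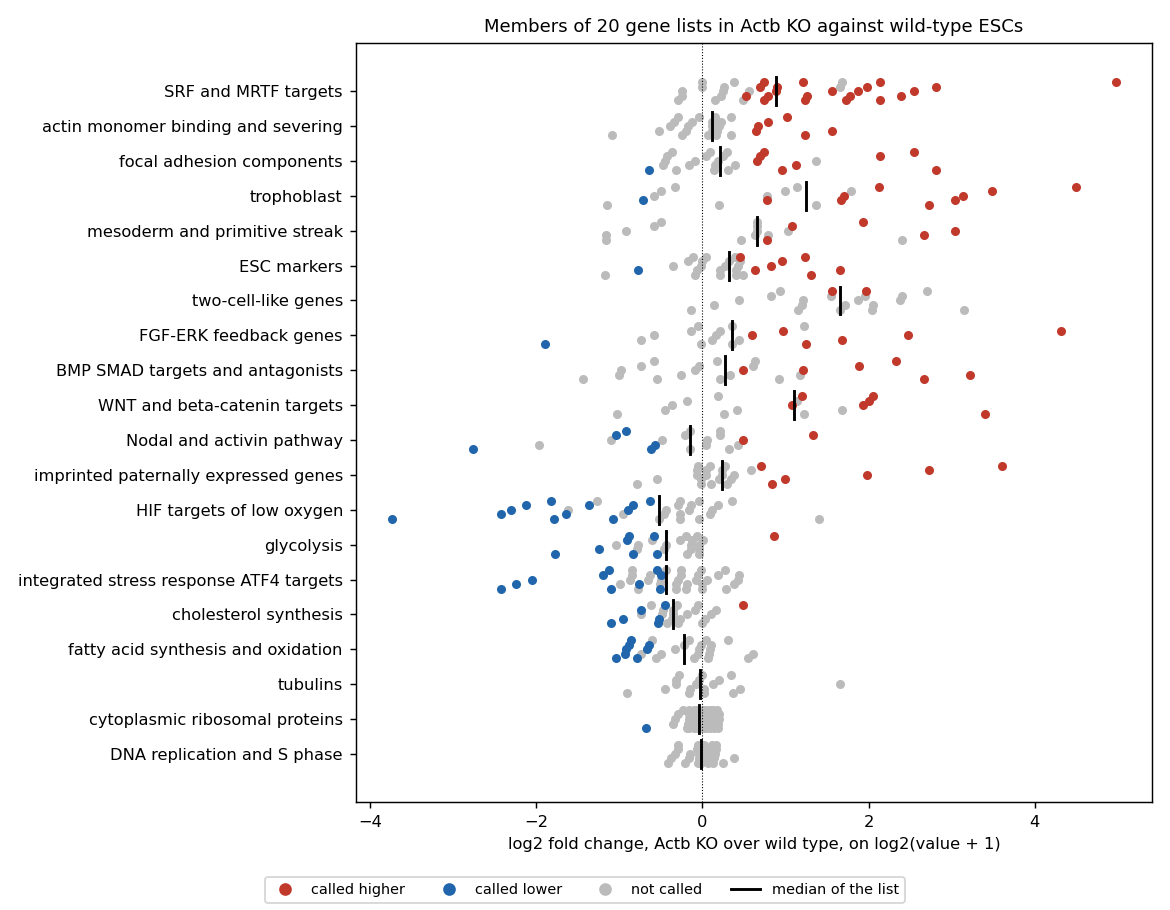
Log2 fold changes of KO over wild type for the tested members of 20 gene lists, 1 dot per gene, red where called higher, blue where called lower and grey where not called, with a black bar at each list's median. SRF and MRTF targets reach 4.98 with a median of 0.89, HIF targets fall to −3.74 with a median of −0.52, and ribosomal proteins stay close to 0 apart from 1 gene.

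Some factors that act on actin monomers and filaments were higher as well. Of the genes that bind monomers or sever filaments, 6 of 27 were higher and 0 lower (median 0.12). Dstn, the filament-severing destrin, had 10281 and 9679 in KO, against 3670 and 3124 in wild type (log2 fold change 1.56, adjusted p = 0.000337), and its helper Wdr1 had 5488 and 5694, against 2225 and 2537 (1.23, adjusted p = 0.000986). The related cofilin Cfl1 had 7120 and 7698 in KO, against 4590 and 4707 in wild type (0.67, adjusted p = 0.00706). Pfn1, Tmsb4x and Cap1, which bind or recycle monomers, rose by 0.79, 1.02 and 0.65. The genes that start new filaments were split. Of the Arp2/3 complex and its activators, which branch filaments, 2 of 23 were higher, Arpc5 (0.78) and Actr3 (0.45), and of formins and other nucleators 3 of 21 were higher (Fmn2, Inf2 and Cobl) and 3 lower (Fmnl1, Fmn1 and Spire2, the last on chromosome 8). Among crosslinkers and cortical linkers 4 of 25 were higher and 2 lower. Lcp1, the bundling protein L-plastin, had 218 and 249 in KO and 1219 and 1136 in locus deletion, against 29 in each wild-type library (KO over wild type 2.96, adjusted p = 5.61e-05; KO over locus deletion −2.33, adjusted p = 0.000208). Lcp1 was thus highest in the locus deletion and lowest in wild type. Myosin genes showed 3 higher of 25. Of 18 tubulins limma called 0, with 3 at an unadjusted p below 0.05. In these lists the adjusted p of the called genes other than Myl9 ran from 0.0566 to 0.347 with single libraries left out.

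Genes of cell to matrix contacts were called mostly higher, and those of cell to cell contacts in both directions. Of 26 focal adhesion components 8 were higher and 1 lower (median 0.22). Zyx, which gathers at adhesions under tension, had 305 and 310 in KO, against 36 and 51 in wild type (log2 fold change 2.81, adjusted p = 0.000418), and its relative Lpp had 2000 and 2496, against 484 and 532 (2.14, adjusted p = 0.000154). Fermt2 (kindlin-2, an integrin activator), Fermt3, Tns3 and Vcl rose by 0.96, 1.12, 0.69 and 0.74, and the tensin Tns1 fell by 0.64 on the log2 scale. Only 2 of 22 integrins were called: Itga1, a collagen receptor subunit, had 45 and 49 in KO, against 4 and 5 in wild type (3.13, adjusted p = 0.00089), and Itga8 rose by 1.62. Of the cadherin and adherens junction genes 2 of 18 were higher and 3 lower. The neuronal cadherin Cdh2 had 274 and 328 in KO, against 133 and 191 in wild type (0.91, adjusted p = 0.037). Cdh1, the E-cadherin of ESCs, had 8280 and 8370, against 12186 and 11800 (−0.53, adjusted p = 0.0168), but Cdh1 and the likewise lowered Cdh3 lie on chromosome 8, without which 1 gene, Afdn, was lower. Of 20 laminin and basement membrane genes 3 were higher, Lama3 (0.57) and Lama5 (0.62) among them, and the linker Nid1 was lower. Collagens had 1 of 25 lower and 0 higher (5 at an unadjusted p below 0.05; median −0.49). With single libraries left out, the called genes of these lists had an adjusted p of 0.0566 to 0.337.

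Intermediate filament genes were called in 7 of 20 cases, 5 higher and 2 lower (median 0.34). The paired simple epithelial keratins Krt8 and Krt18, neighbours on chromosome 15, rose together: Krt18 had 339 and 302 in KO and 15 and 15 in locus deletion, against 88 and 60 in wild type (KO over wild type 2.12, adjusted p = 0.00284). Krt8 had 344 and 286 in KO and 26 and 24 in locus deletion, against 105 and 92 in wild type (1.66, adjusted p = 0.00332). Both keratins were thus highest in the KO and lowest in the locus deletion, and KO over locus deletion gave 4.33 (Krt18) and 3.60 (Krt8), each with an adjusted p of 0.000122. The neurofilament genes Nefm (1033 and 865 in KO, against 166 and 129 in wild type; 2.68, adjusted p = 0.000437) and Nefl (1.47) rose, and so did the lamin gene Lmna (0.66). Nes, the nestin of neural precursors, had 309 and 287 in KO, against 1081 and 786 in wild type (−1.63, adjusted p = 0.00167). Vim, the vimentin gene, had 4122 and 4432 in KO and 3133 and 4011 in wild type and was not called. These calls had an adjusted p of 0.0696 to 0.305 with single libraries left out.

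The pluripotency network stayed expressed, and a part of it was raised. Of the 27 ESC markers 7 were higher and 1 lower (median 0.32). Dnmt3l, a cofactor of DNA methylation, had 2513 and 2437 in KO and 830 and 841 in locus deletion, against 880 and 699 in wild type (KO over wild type 1.66, adjusted p = 0.000531). Lin28a, an RNA-binding protein that blocks let-7 maturation, had 2609 and 2332 in KO and 795 and 657 in locus deletion, against 1127 and 974 in wild type (1.23, adjusted p = 0.00284). Against the locus deletion 3 of the 27 ESC markers were higher and 3 lower (median −0.05), where 2.56 percent of all genes were higher and 2.32 percent lower. Dnmt3l and Lin28a were among the higher (KO over locus deletion 1.57 for Dnmt3l and 1.77 for Lin28a, adjusted p = 0.000784 and 0.000663). Utf1, Nr0b1, Dppa2, Klf5 and Tet2 rose by 0.45 to 1.30, and the growth factor Fgf4 fell, with 4942 and 4938 in KO, against 8317 and 8517 in wild type (−0.77, adjusted p = 0.00481). Of the formative and primed epiblast genes 6 of 20 were higher and 3 lower. Those lowered included Otx2, which directs the exit from the naive state, with 18 and 17 in KO and 60 and 61 in locus deletion, against 112 and 91 in wild type (−2.46, adjusted p = 0.00117), and the Nodal inhibitor Lefty2 (−0.92). Those raised included Lef1, Dnmt3b and Etv4 (2.06, 0.81 and 1.24). Left-out libraries gave these called genes an adjusted p of 0.0588 to 0.354.

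Some genes of the primitive streak and of trophoblast were higher. Of the mesoderm and primitive streak genes 5 of 18 were higher and 0 lower (median 0.66). Eomes, which drives early mesoderm and trophoblast, had 230 and 231 in KO and 59 and 64 in locus deletion, against 130 and 138 in wild type (0.78, adjusted p = 0.0312). Bmp4, a signal of the streak, is described with its pathway. Of 20 tested trophoblast genes 9 were higher and 1 lower (median 1.25). Peg10, a retroelement-derived gene of the placenta, had 7622 and 8603 in KO and 1450 and 1275 in locus deletion, against 1124 and 1341 in wild type (2.72, SE 0.126, adjusted p = 5.61e-05). Gata2, a trophoblast and blood regulator, had 200 and 195 in KO and 50 and 37 in locus deletion, against 58 and 62 in wild type (1.70, adjusted p = 0.00448). Of these trophoblast genes 7 were higher and 3 lower than in the locus deletion, with Rhox6 (−2.26) among the lower. Peg10 and Gata2 stood above it in this test (2.57 for Peg10, adjusted p = 0.000107, and 2.17 for Gata2, adjusted p = 0.00175). The defining marker Elf5 was at 0 in both KO libraries, Hand1 had 1 and 1, and Tpbpa, Prl3d1 and Prl2c2 were not analysed here. Tfap2c, shared by trophoblast and germ line, was lower, with 929 and 1005 in KO, against 1545 and 1632 in wild type (−0.72, adjusted p = 0.0101). Of the neural list 3 of 11 were higher and 1 lower, and of the endoderm list 2 of 16 higher and 1 lower: Dab2 had 138 and 115 in KO, against 27 and 39 in wild type (1.92, adjusted p = 0.00483), and Gata4 fell by 1.91. The range of adjusted p with single libraries left out was 0.0566 to 0.272 for the called genes of these lists.

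**Figure D4:**
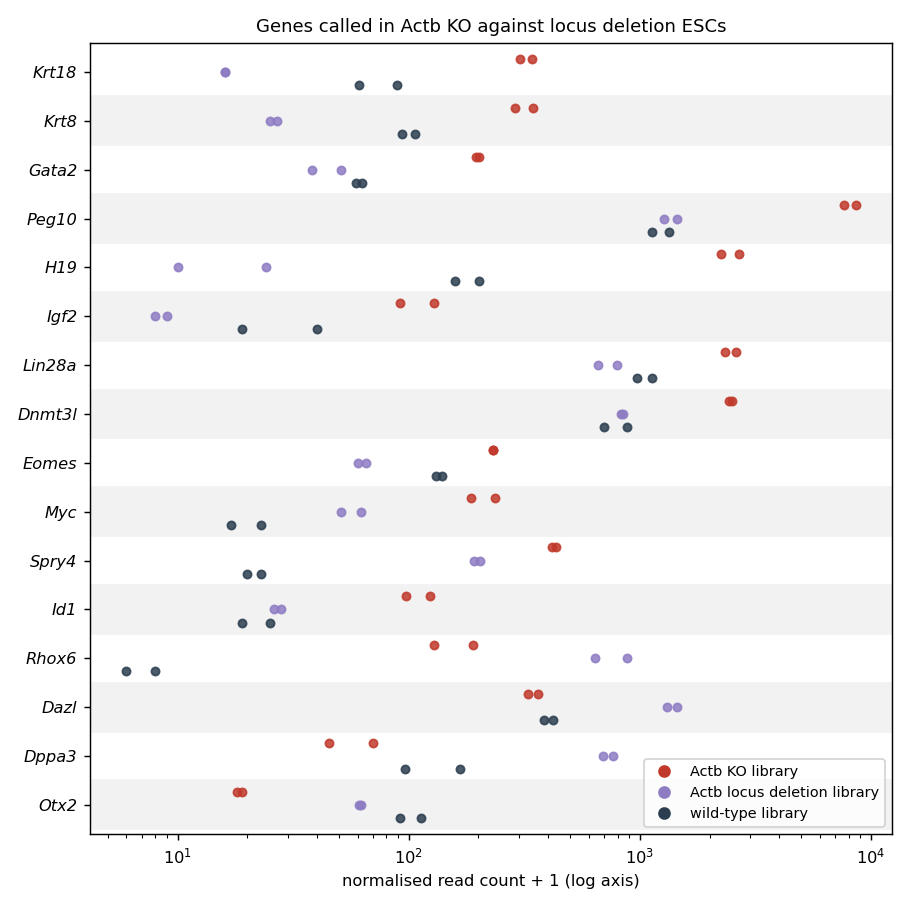
Normalised read counts plus 1 on a log axis for 16 genes called in Actb KO against locus deletion ESCs, with 1 dot per library in red (KO), purple (locus deletion) and dark (wild type). For Krt18 the KO libraries, at 339 and 302, lie above wild type at 88 and 60 and the locus deletion at 15 and 15, while for Dppa3 the locus deletion is highest at 692 and 764.

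Genes of the germ line and of the 2-cell-like state were called more often in the KO against the locus deletion than against wild type, and this difference between the comparisons was not tested. Of 29 germline genes 3 were higher and 5 lower in KO against wild type. Prdm1, a repressor that starts the germ line programme, had 88 and 89 in KO and 215 and 192 in locus deletion, against 337 and 402 in wild type (KO over wild type −2.04, adjusted p = 0.000516), and the receptor Kit was also lower (−0.66). Against the locus deletion 9 germline genes were lower and 1 higher. Dazl had 360 and 328 in KO and 1444 and 1305 in locus deletion, against 385 and 418 in wild type (adjusted p = 0.000208 for KO over locus deletion). Genes of the 2-cell-like state, in which a few ESCs turn on genes of the early embryo, had a median of 1.66 and 20 of 21 above 0, and 2 were called, or 7 with a pseudocount of 5 and 1 with a pseudocount of 0.5. Zscan4a had 62 and 62 in KO and 1 and 1 in locus deletion, against 22 and 19 in wild type (KO over wild type 1.55, adjusted p = 0.0455). Zscan4d had 138 and 137 in KO and 4 and 1 in locus deletion, against 41 and 45 in wild type, and was not called against wild type (adjusted p = 0.0656). Against the locus deletion 15 of the 21 were higher and 0 lower. The Zscan4 copies are nearly alike in sequence, which leaves the assignment of reads to each copy uncertain, and this also holds for the X-linked Rhox genes, of which Rhox6 (188 and 128 in KO and 637 and 881 in locus deletion, against 7 and 5 in wild type; KO over wild type 4.49, adjusted p = 0.000147) and Rhox9 were higher. In the fits with a library left out the calls against wild type had an adjusted p of 0.0566 to 0.334.

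Imprinted genes that are expressed from the paternal allele rose in 6 of 25 cases and fell in 0 (median 0.23), and maternally expressed genes were higher in 1 and lower in 1 of 21. The noncoding RNA H19 had 2675 and 2241 in KO and 9 and 23 in locus deletion, against 200 and 157 in wild type (KO over wild type 3.78, SE 0.353, adjusted p = 0.00133). Its neighbour Igf2, a growth factor, had 91 and 127 in KO and 7 and 8 in locus deletion, against 18 and 39 in wild type (1.98, adjusted p = 0.0284). Both lie within chr7:142575529-142666816, and both were also higher than in the locus deletion (7.30 for H19, adjusted p = 0.000107; 3.68 for Igf2, adjusted p = 0.00281). At the Dlk1-Dio3 domain on chromosome 12, Dio3, which inactivates thyroid hormone, had 468 and 473 in KO, against 41 and 35 in wild type (3.60, adjusted p = 5.61e-05), while the maternal noncoding RNA Meg3 of that domain had 3217 and 3398, against 3610 and 4404, and was not called. Mest, Peg3 and Zdbf2 rose by 0.99, 0.83 and 0.70, and the adaptor Grb10 fell by 0.69 on the log2 scale. Allelic expression was not measured. The adjusted p of these calls ran from 0.0566 to 0.312 with single libraries left out.

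Feedback genes of FGF and ERK signalling rose in 6 of 19 cases and fell in 1 (median 0.35). Spry4, which dampens signals from receptor tyrosine kinases, had 434 and 415 in KO and 191 and 202 in locus deletion, against 22 and 19 in wild type (KO over wild type 4.31, SE 0.164, adjusted p = 2.68e-05). Dusp6, the phosphatase that removes phosphate from ERK, had 160 and 156 in KO, against 33 and 23 in wild type (2.48, adjusted p = 0.00142), and the transcription factor Etv1 had 463 and 426, against 125 and 151 (1.69, adjusted p = 0.000986). Spry2, Etv4 and Il17rd rose by 0.97, 1.24 and 0.60, while Ier3 fell (10 and 16 in KO, against 53 and 47 in wild type; −1.90). The ligands and receptors of the family showed 1 higher and 2 lower of 19, and Fgf4 was among the lower. Of the BMP and SMAD list 6 of 22 were higher and 0 lower (median 0.27). The ligand Bmp4 had 179 and 220 in KO, against 32 and 29 in wild type (2.66, adjusted p = 0.000565). The targets Id3 (84 and 81 in KO, against 7 and 9 in wild type; 3.22, adjusted p = 0.000801) and Id1 (96 and 122, against 18 and 24; 2.33, adjusted p = 0.00332) rose with it, as did the inhibitors Fst (1.21) and Smad7 (0.49). With single libraries left out the called genes of these lists had an adjusted p of 0.0312 to 0.272, and Spry4 alone kept its call, in the fits without a wild-type library.

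Of 16 WNT targets 6 were higher and 0 lower (median 1.10), while WNT ligands, receptors and modulators had 2 of 33 higher, the ligand Wnt5b (1.59) and Porcn (2.33), which makes WNTs fit for secretion. Myc, a growth regulator, had 235 and 184 in KO and 50 and 61 in locus deletion, against 22 and 16 in wild type (3.40, SE 0.247, adjusted p = 0.000437), and KO over locus deletion was 1.89 (adjusted p = 0.00561). Axin2, a feedback inhibitor, had 1052 and 860 in KO, against 457 and 377 in wild type (1.19, adjusted p = 0.00476). The Nodal and activin list leaned downward, with 5 of 19 lower and 2 higher (median −0.15). Its transducer Smad3 had 229 and 193 in KO, against 442 and 427 in wild type (−1.04, adjusted p = 0.00809), and Skil and Furin fell by 0.62 and 0.57. Nodal itself had 654 and 624 in KO and 599 and 508 in wild type and was not called. In the IGF system 4 of 15 were lower and 2 higher: Igfbp4, which binds IGFs outside the cell, had 16 and 24 in KO, against 184 and 186 in wild type (−3.17, adjusted p = 0.000801), and Igfbp2 had 807 and 661, against 2081 and 1255 (adjusted p = 0.0241). Hedgehog genes had 2 lower and 0 higher of 17 (4 at an unadjusted p below 0.05), the receptor Ptch1 (−0.90) and the transducer Smo (−0.89). The Notch list had 1 higher and 1 lower of 17, and the LIF and STAT list 1 and 1 of 16. Ephrins, semaphorins and plexins had 4 and 3 of 34, or 3 and 3 without chromosome 8. Of all genes 2.44 percent were called in each direction. The adjusted p of called genes in these lists was 0.0606 to 0.326 with single libraries left out.

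Some of the genes induced by low oxygen and of glycolysis were lower. Of 31 targets of HIF, the factor that drives the response to low oxygen, 12 were lower and 0 higher (median −0.52), and 10 lower remained outside chromosome 8. Bnip3, a receptor for the removal of mitochondria, had 65 and 68 in KO, against 314 and 348 in wild type (−2.30, adjusted p = 0.000875). Vegfa, the vascular growth factor, had 450 and 424 in KO, against 1254 and 1008 in wild type (−1.36, adjusted p = 0.00434). Egln3, an oxygen sensor that limits HIF, had 35 and 39, against 153 and 115 (−1.82, adjusted p = 0.00625). In each the highest KO library lay below the lowest wild-type library, as in every gene called lower. Of 25 glycolysis genes 7 were lower and 1 higher (median −0.44). Slc16a3, which exports lactate, had 88 and 96 in KO, against 325 and 310 in wild type (−1.78, adjusted p = 0.0014). Pfkp, a subunit of the committed enzyme phosphofructokinase, had 2411 and 2009, against 4485 and 3808 (−0.91, adjusted p = 0.00679), and the hexokinase Hk1 had 884 and 734, against 1642 and 1352 (−0.89, adjusted p = 0.011). Enzymes of the same pathway that were not called include Pgk1 (1128 and 727 in KO, 1710 and 1405 in wild type; adjusted p = 0.105), Gapdh (7102 and 5154 in KO, 7962 and 4999 in wild type) and Hk2. Left-out libraries gave the called genes of both lists an adjusted p of 0.0566 to 0.345.

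**Figure D5:**
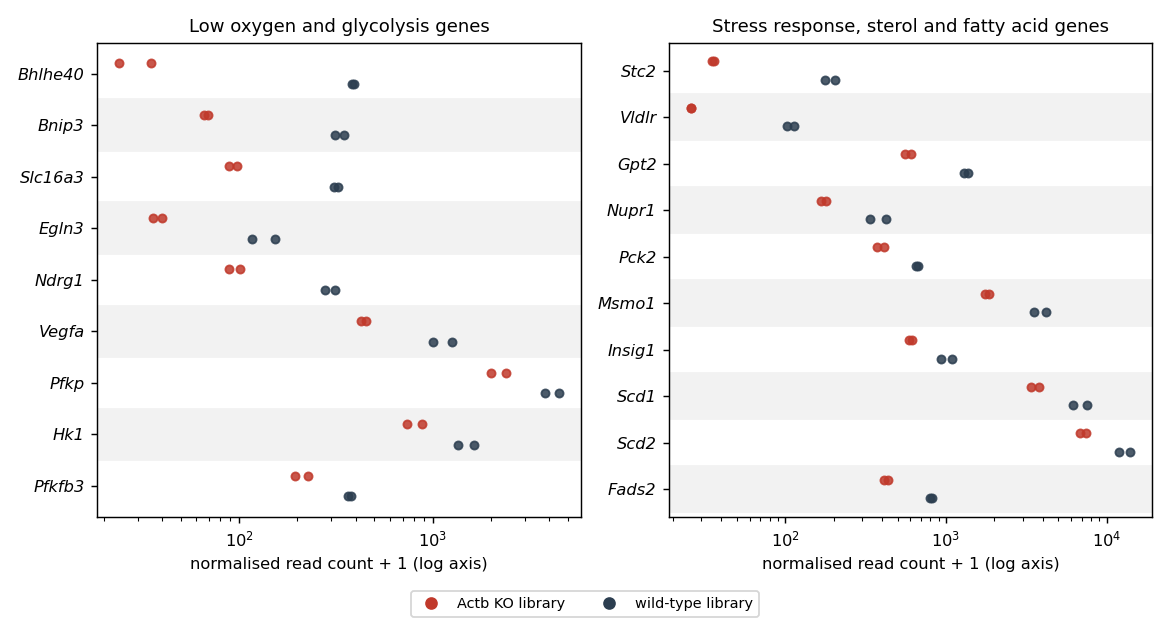
Normalised read counts plus 1 on a log axis for named genes of the low oxygen and glycolysis lists (left) and of the stress response, sterol and fatty acid lists (right), with 1 dot per library in red (KO) and dark (wild type). All KO dots lie left of the wild-type dots of the same gene, as they do for every gene called lower. Examples are Bnip3 (65 and 68 in KO, 314 and 348 in wild type) and Scd2 (6820 and 7393 in KO, 11873 and 14044 in wild type).

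The targets of ATF4, the factor of the integrated stress response to amino acid shortage and other stresses, showed 10 lower and 0 higher of 39 (median −0.44). Of these 10, Gpt2, Aars, Slc7a5 and Gdf15 lie on chromosome 8, and 6 were lower without it. Stc2, a secreted glycoprotein, had 34 and 35 in KO, against 202 and 177 in wild type (−2.42, adjusted p = 0.000565). Vldlr, a lipoprotein receptor, had 25 and 25, against 102 and 112 (−2.05, adjusted p = 0.00428), and the small stress protein Nupr1 had 179 and 165, against 421 and 337 (−1.13, adjusted p = 0.00964). The mRNA of Atf4 itself had 3065 and 4179 in KO and 3348 and 3911 in wild type and was not called, nor were Asns and Trib3. The serine synthesis gene Psat1 had 2316 and 1863 in KO and 4165 and 3034 in wild type and was not called either (adjusted p = 0.074). The called ATF4 targets had an adjusted p of 0.0885 to 0.347 in the fits with a library left out.

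The core of the ATF4 binding element, TGATGNAA, was searched on both strands in the same 300 base windows. It was found for 10 of the 31 ATF4 targets with a promoter, 4 of 9 called and 6 of 22 not called. The share was 2.89 percent among all tested genes with a promoter (365 of 12622), 2.59 percent among genes called higher (10 of 386) and 4.98 percent among genes called lower (20 of 402). The called targets with a match are shown, with the match in capitals in the gene's own direction, where it reads as the reverse complement. The stretches are at chr19:27216790-27216857 (Vldlr, plus strand), chr7:126625543-126625610 (Nupr1, minus), chr8:111033700-111033767 (Aars, plus) and chr14:55540133-55540200 (Pck2, plus), from RefSeq on GRCm38.p6.
Vldlr: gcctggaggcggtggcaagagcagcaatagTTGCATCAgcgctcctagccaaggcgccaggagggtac
Nupr1: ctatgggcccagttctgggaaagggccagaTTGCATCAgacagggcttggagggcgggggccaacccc
Aars: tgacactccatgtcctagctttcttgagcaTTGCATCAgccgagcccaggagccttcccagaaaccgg
Pck2: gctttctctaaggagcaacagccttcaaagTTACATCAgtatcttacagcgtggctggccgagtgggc
Pck2, an enzyme that feeds mitochondrial metabolites into glucose synthesis, had 408 and 369 in KO, against 669 and 653 in wild type (log2 fold change −0.77, adjusted p = 0.0107). Aars, the alanyl tRNA synthetase, had 5958 and 5866, against 8841 and 7921 (−0.50, adjusted p = 0.0269), and its window holds a further match outside the stretch shown.

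Lipid synthesis genes were lowered in part. Of 25 cholesterol synthesis genes 6 were lower and 1 higher (median −0.35). Msmo1, a sterol demethylase on chromosome 8, had 1742 and 1846 in KO and 1145 and 997 in locus deletion, against 3534 and 4165 in wild type (−1.10, adjusted p = 0.00306), and 5 genes were lower without that chromosome. Insig1, which holds back the sterol-sensing machinery, had 615 and 591 in KO, against 930 and 1087 in wild type (−0.74, adjusted p = 0.0137), and Dhcr7 and Stard4 fell by 0.95 and 0.52. Hmgcs1 and Sqle, in the same pathway, were not called (Sqle 1348 and 1438 in KO, 1293 and 1305 in wild type), and Ebp was higher (0.49). Against the locus deletion 8 of the 25 were higher and 0 lower. Of 27 fatty acid genes 8 were lower and 0 higher (median −0.22), 7 of them off chromosome 8. The desaturases Scd1 (3387 and 3799 in KO, against 6128 and 7524 in wild type; −0.92, adjusted p = 0.00625) and Scd2 (−0.86, adjusted p = 0.00569) and the fatty acid desaturase Fads2 (432 and 413, against 822 and 795; −0.93, adjusted p = 0.00485) fell together with Acsl1, Acsl3 and Acacb. Fasn, the fatty acid synthase, had 6418 and 6576 in KO and 6800 and 7078 in wild type and was not called. The adjusted p with single libraries left out ran from 0.116 to 0.355 for the called lipid genes.

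Several basic cell functions showed few calls or none, while other lists given here, such as cell cycle regulators, held more. In limma 0 of 32 genes of DNA replication and S phase were called (6 at an unadjusted p below 0.05; median −0.02), and of 30 genes of mitosis 1 was lower, Aurka (−0.51). Of 54 cytoplasmic ribosomal proteins 1 was lower, Rpl13 on chromosome 8, with a median of −0.04. None was called among 40 nuclear subunits of the respiratory complexes (2 at an unadjusted p below 0.05), 21 genes of the unfolded protein response (3 at that level), 30 of lysosome and autophagy (9) or 31 mRNA decay factors (7). Among all 23054 genes, 4662 had an unadjusted p below 0.05 in limma. Of the 9 mitochondrially encoded genes 0 were called (5 at an unadjusted p below 0.05; median 0.51). Among p53 targets 2 of 25 were higher, Perp (318 and 283 in KO, against 98 and 102 in wild type; 1.58, adjusted p = 0.00146) and Plk2 (0.88), while Cdkn1a and Mdm2 were not called. Of 18 cell cycle regulators 11.1 percent were higher and 11.1 percent lower, against 2.44 percent of all genes in each direction. Cdk6 (1.00) and Ccnd2 (2.31) were higher and the inhibitors Cdkn1b (−0.66) and Cdkn2a (−1.10) lower. Of 26 interferon response genes 1 was higher, the RNA sensor Ddx58 (849 and 859 in KO, against 148 and 150 in wild type; 2.51, adjusted p = 5.61e-05), and 1 lower, B2m (−0.72). In the NRF2 and glutathione list Gpx1, which reduces peroxides, had 3604 and 3147 in KO, against 1479 and 1199 in wild type (1.34, adjusted p = 0.00396), and Gsto1 was higher and Gsr, on chromosome 8, lower of 29. Called genes of these lists had an adjusted p of 0.0566 to 0.336 with single libraries left out.

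Chromatin regulators had called genes in both directions, beside 2.44 percent of all genes in each. Abundant genes as a whole were called higher more often than lower, at 4.19 against 2.91 percent for means of 1000 to 5000. Of 18 genes of DNA methylation and its removal 4 were higher and 2 lower (median 0.36). Besides Dnmt3l, Dnmt3b had 3585 and 3402 in KO, against 2002 and 1994 in wild type (0.81, adjusted p = 0.00451), Zfp57, which guards imprints, had 8064 and 8415, against 5160 and 4692 (0.74, adjusted p = 0.00562), and Tet3 and Uhrf2 fell by 0.70 and 0.61. Polycomb genes had 2 of 33 higher (Jarid2 and Phc1, 0.53 and 0.42). The COMPASS and BAF complexes had 2 of 32 higher, Setd1b (0.97) and Smarca2 (1.00), and 0 lower (11 at an unadjusted p below 0.05). These calls had an adjusted p of 0.0588 to 0.348 with single libraries left out.

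Sorted by symbol alone, with no choice by hand, 184 groups of genes that share the letters of their symbol had 10 or more tested members. They held 5258 genes, of which 126 were higher and 147 lower, shares close to the 2.44 percent of all genes in each direction. In 69 groups there was no call, and the groups named next were picked from the 184. The annexins, which bind membranes through calcium, had 3 of 11 higher and 0 lower: Anxa3 had 97 and 128 in KO, against 8 and 9 in wild type (3.57, SE 0.311, adjusted p = 0.000986), and Anxa6 and Anxa1 rose by 0.97 and 1.28. The dual-specificity phosphatases (Dusp) had 3 of 19 higher, the Kruppel-like factors (Klf) 3 of 17, and the Cdkn group 3 of 10 lower. Semaphorins (Sema) had 4 of 19 lower and 1 higher. Groups called as often but split by direction include Car (2 higher and 2 lower of 13) and Cdh (2 and 2 of 14). Of the large groups, 291 solute carriers (Slc) had 11 higher and 12 lower, 383 zinc finger genes (Zfp) 15 and 5, and 202 Tmem genes 2 and 2. These are 7.9 percent called for Slc, 5.22 for Zfp and 1.98 for Tmem, against 4.88 percent of all genes. By class, 510 of 15025 protein-coding genes were higher and 526 lower (3.39 and 3.5 percent), 15 of 1059 lincRNAs were higher and 10 lower, and 7 of 2208 processed pseudogenes were called. None of 292 miRNA genes was called by limma. The share called varied with level, from 0.266 percent higher and 0.178 percent lower among 6755 genes with a mean below 10 to 6.14 and 2.19 percent among 456 genes above 5000. The share called lower was highest among 3854 genes with a mean of 50 to 200, at 4.57 percent, and was 4.18 percent for 200 to 1000.

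Smooth and striated muscle contractile genes had 9 of 28 higher and 1 lower (median 0.28), and most of the raised ones, such as Myl9, Cnn2, Csrp1 and the tropomyosins, also serve in cells other than muscle. The smooth muscle actin Acta2 was not in this list. Csrp1, a LIM protein that binds filaments, had 1230 and 1358 in KO, against 571 and 508 in wild type (1.26, adjusted p = 0.00101). Tight junction and desmosome genes had 1 of 21 lower, Dsp, which anchors keratins at desmosomes (290 and 225 in KO, against 670 and 449 in wild type; −1.10, adjusted p = 0.0279). TGF-beta and YAP targets had 2 of 20 higher, Ctgf and Cyr61, and 2 lower, Tead2 and Amotl1. Of 23 genes of the folate and serine pathway 1 was lower and 13 had an unadjusted p below 0.05. Annexins and S100 genes had 3 higher and 1 lower of 17, Kruppel-like and SP factors 4 and 0 of 24, SOX factors 2 and 0 of 16, GATA, TBX and FOX factors 3 and 1 of 25 and basic helix-loop-helix regulators 3 and 1 of 31. Heat shock proteins had 1 higher and 1 lower of 20, apoptosis regulators 1 and 1 of 24, and NF-kappaB targets 1 and 1 of 17, and the lowered gene of each of the last 2 lists lies on chromosome 8. Metalloproteases and their inhibitors had 1 lower of 22, on chromosome 8, and circadian genes 1 lower of 18, Bhlhe40. Beside these counts, 2.44 percent of all genes were called in each direction. For genes with a mean of 200 to 1000 the shares were 4.16 percent higher and 4.18 percent lower. The adjusted p of called genes other than Myl9 in these lists ran from 0.0566 to 0.367 with single libraries left out.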

How the data were processed

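Total RNA was purified with the miRNeasy micro kit and on-column DNase, and libraries were made with the SMARTer stranded total RNA kit, per the labels' protocols. Tools named without role or order, per the submitters' processing notes, are DESeq, DESeq2 1.14.1, Subread, featureCounts 1.6.0, STAR 2.5.3a and FastQC, with the builds GRCm38 and mm10. Whether counting used strand is not given in the sources used here, so reads of overlapping and antisense genes cannot be told apart. The values the authors deposited are whole numbers with near-equal sums, taken from this to be read counts normalised across libraries and rounded, which no label states, and treated here as a score. Raw counts were not analysed here, so limma took the place of the count test first planned. Summed values were 16022043 to 16529089 per library. They are not depths, and the sequencing depth is unknown.

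A linear model was fitted to log2(value + 1) for 23054 genes with a mean of at least 1 over 6 ESC libraries (limma 3.58.1 in R 4.3.3, eBayes with trend, 3 residual and 5.4 prior degrees of freedom), with 2 libraries per group and Benjamini-Hochberg adjustment over all genes. Fold changes on this scale understate the change of low genes. Values of both libraries are printed in place of a mean and SD. Tables were made in Python 3.11.15 with pandas 2.3.3 and numpy 2.4.6, and figures with matplotlib 3.10.9. Positions and classes are from GENCODE M21, which held 23016 of the gene IDs. The fit was tested on simulated data. Over genes with a mean of at least 50, replicate libraries had a correlation of log2 values of 0.9854 in KO and 0.9806 in wild type.

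Named genes include the 20 with the largest and the 20 with the smallest log2 fold change among called genes. These had to have a mean of at least 50 in the higher group, a gene name, and KO and wild-type values without overlap. In each list, up to 6 called genes per direction by adjusted p are also named, with abundant members that were not called. Aars, Slc7a5, Gdf15, Elf5, Hand1, Dppa3 and Zscan4d were named after their values were seen. The members and lists were chosen with earlier results of these data known. The alternatives tried were another pseudocount, other filters, other scalings, a fit without the trend, only the 4 libraries compared, a replicate block and each library left out. The tables of the other cell types of the series were not used here. Some genes and 1 gene list are not reported here.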

Additional observations from a re-analysis of the deposited data

How the results depend on the processing

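The direction held for all 244 named genes under every alternative in which they were tested, while the number of calls did not. In the fits with a library left out, the kept direction follows from KO and wild-type values that do not overlap. The labels give the libraries the same numbers but do not say that a number marks a shared culture or batch. Deviations from the group means were compared between same-numbered libraries over genes with a mean of at least 50. Their correlation was 0.678 between KO and wild type, 0.492 between KO and locus deletion and 0.349 between locus deletion and wild type. This is a hint from the values, not the design. With a replicate block 921 genes were higher and 929 lower, among list members 162 lower (188 higher), in symbol groups 220 and 238, and against the locus deletion 909 and 826. Of single lists, the block gave 13 glycolysis genes lower (7 without it), 6 folate and serine genes lower (1 without it), 6 genes of the 2-cell-like state higher (2 without it) and 3 mitochondrially encoded genes higher (0 without it). With only the 4 libraries compared, 121 genes were higher and 71 lower, among list members 59 and 22, and in symbol groups 22 and 15. Without the trend in the prior, 98 were higher and 54 lower, among list members 33 and 11, in symbol groups 16 and 6, and against the locus deletion 49 and 9. The cause of these shifts was not tested. With single libraries left out, counts ranged from 0 to 4 higher and 0 to 0 lower, among list members from 0 to 2 and 0 to 0, in symbol groups from 0 to 0 in both directions, and against the locus deletion from 1 to 24 higher and 0 to 4 lower. Of the named genes, 190 lost their call without the trend, 152 with only the 4 libraries, 12 when rescaled without genes over 1 percent, 6 with a pseudocount of 0.5, 4 when rescaled without chromosome 8 and 2 with a pseudocount of 5. With a mean of at least 10 required, 649 genes were higher and 660 lower. The rescalings moved KO against wild type by −0.0679 (without genes over 1 percent), −2.57e-05 (TMM) and −0.0202 (without chromosome 8) on the log2 scale. The sequencing depth is unknown.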
